A study of Mus musculus with 4 samples.

Results

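The genes described here encode proteins that neutrophils make late in their maturation: the cytosolic alarmin pair S100a8 and S100a9, the granule proteins Ltf, Lcn2, Camp, Ngp, Mmp8 and Mmp9, and the surface receptors Cxcr2 and Csf3r. They are 10 of 18194 genes named on the array, chosen by name, and every probe set annotated to 1 of these symbols alone was read. There were 11 such probe sets, 1 for each gene and 2 for Mmp9, where the brighter by mean log2 signal was taken as the main one. The probe sets of S100a8 and Lcn2 are of the _s_at and _a_at kinds, which can detect more than 1 transcript. All 10 genes passed the filter on low values, which left 12680 genes. Cxcr2 passed with 1 array below it: its wild type replicate 1 signal was 27.3, and the filter corresponds to a signal of 30.3.

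RNA came from Lin-Sca-1+c-Kit+ (LSK) cells, the bone marrow fraction in which haematopoietic stem cells and early progenitors are enriched and from which cells with mature lineage markers are depleted. The donors of the fetal liver cells were necdin null in 1 group and wild type in the other, and the C57BL/6 mice reconstituted with them had all received a sublethal dose of 6.5 Gy. Each group has 2 arrays, numbered replicate 1 and replicate 2, and all groups were irradiated, so nothing here separates the effect of radiation. Whether the replicates are separate mice, whether mice were pooled and how many host cells remained is not stated in the labels, and a p-value therefore reflects no more than array-to-array spread, part of which may be technical.

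Neutrophil granules are filled in sequence. Primary granules, with myeloperoxidase and the serine proteases, form in promyelocytes; secondary granules, with lactoferrin, the cathelicidins and neutrophil collagenase, form in myelocytes and metamyelocytes; tertiary granules, rich in gelatinase, follow in band cells. The genes of secondary granules are switched on late and depend in the mouse on the transcription factor C/EBP epsilon, and CXCR2, which carries mature neutrophils out of the marrow, comes later still. The G-CSF receptor encoded by Csf3r differs from the others in that it is already present on early progenitors.

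The targeted gene Ndn was low on the necdin null arrays, at 2.73 and 12.1 on one probe set and 1.74 and 4.86 on the other, against 559 and 391.8 and against 504 and 329 on the wild type arrays. Of the markers of stem cells and early progenitors, Kit had 6049 and 3744 in the necdin null group and 6617 and 3976 in the wild type group, and 10 of 10 such genes measured passed the filter; Ly6a, which encodes Sca-1, and the neutrophil marker Ly6g were not analysed here. Itgam, the integrin chain of mature myeloid cells, lay below the filter, with 15.2 and 44.8 in the necdin null group and 22.2 and 24.9 in the wild type group. It was the exception in a list of other late neutrophil genes, of which 28 were on the array and 27 passed the filter. Among these Itgb2 had 1810 and 1470 in the necdin null group and 1353 and 2049 in the wild type group. The arrays differed by replicate number in signs of RNA quality: the Actb 3' to 5' signal ratio was 14.5 (necdin null) and 12.4 (wild type) on the replicate 2 arrays, against 9.21 and 9.97 on the replicate 1 arrays, and the Gapdh ratio was 15.8 and 11.7 against 10.96 and 9.96. Sex-linked signals also differed between arrays of 1 genotype: Xist had 4841 and 76.8 in the necdin null group and 9930 and 7182 in the wild type group. Eif2s3y, on the Y chromosome, gave 2273 and 2987 in the necdin null group, against 32.6 and 1974 in the wild type group. Necdin null replicate 2 thus stood apart in Xist, and wild type replicate 1, the lowest array for 9 of the 10 genes, in Eif2s3y; the part of this in the results was not tested.

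In LSK cells the late neutrophil genes were divided by replicate number more than by genotype. Of the 10 genes, 9 had both replicate 2 arrays above both replicate 1 arrays, where 19.5% of all genes did, and the exception was Csf3r. For Csf3r alone both necdin null arrays lay above both wild type arrays, where 12.8% of all genes did. The median log2 difference over the 10 genes was 1.61 for replicate 2 minus replicate 1 and 0.61 for necdin null minus wild type, while over all genes tested these medians were -0.011 and -0.031. Over all genes 1617 had the necdin null arrays above and 2250 (17.7%) below, and 2468 had the replicate 2 arrays above and 2675 (21.1%) below; with median centring, which moved the medians of all genes to -0.11 by genotype and -0.13 by replicate number, these counts were 941 and 2942, and 1381 and 3578. The counts of 9 and 1 among the 10 genes were the same with median centring and with quantile normalization. Wild type replicate 1 was the lowest of the 4 arrays for 9 genes, and necdin null replicate 2 the highest for 8. The shares of all genes with these extremes are not given here. Over all probe sets wild type replicate 1 also had the lowest median signal, 53.7, against 61.3 to 63.2 on the other arrays. With limma, adjusted over all genes, none of the 10 passed in either comparison; of all genes, 0% passed by genotype, and by replicate number 0% passed as higher and 0.00789% as lower on the replicate 2 arrays. At an unadjusted p under 0.05 the 10 genes gave 8 by replicate number and 0 by genotype, where 3.7% of all genes were higher on the replicate 2 arrays and 5.13% lower, and 1.07% higher and 1.95% lower in necdin null cells. The calls by replicate number depended on the setting. With limma's adjusted p 3 of the 10 passed with the filter at the 60th percentile, where 11 of 9673 genes did. With median centring 5 of the 10 passed, where 22 of 12680 genes did. By genotype 0 passed under these settings. These genotype fits left replicate number out, so its spread entered their standard errors. In the limma fit with a replicate block, 7 of the 10 had an unadjusted p under 0.05 by genotype. Of all 12680 genes 675 did, and 0 of the 10 passed after adjustment. By number 7 of the 10 passed in that setting, where 28 of 12680 genes did. The main fit did not take same-numbered arrays as pairs. Since RNA was measured in bulk, fewer cells of a type and less RNA per cell cannot be told apart.

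**Figure D1:**
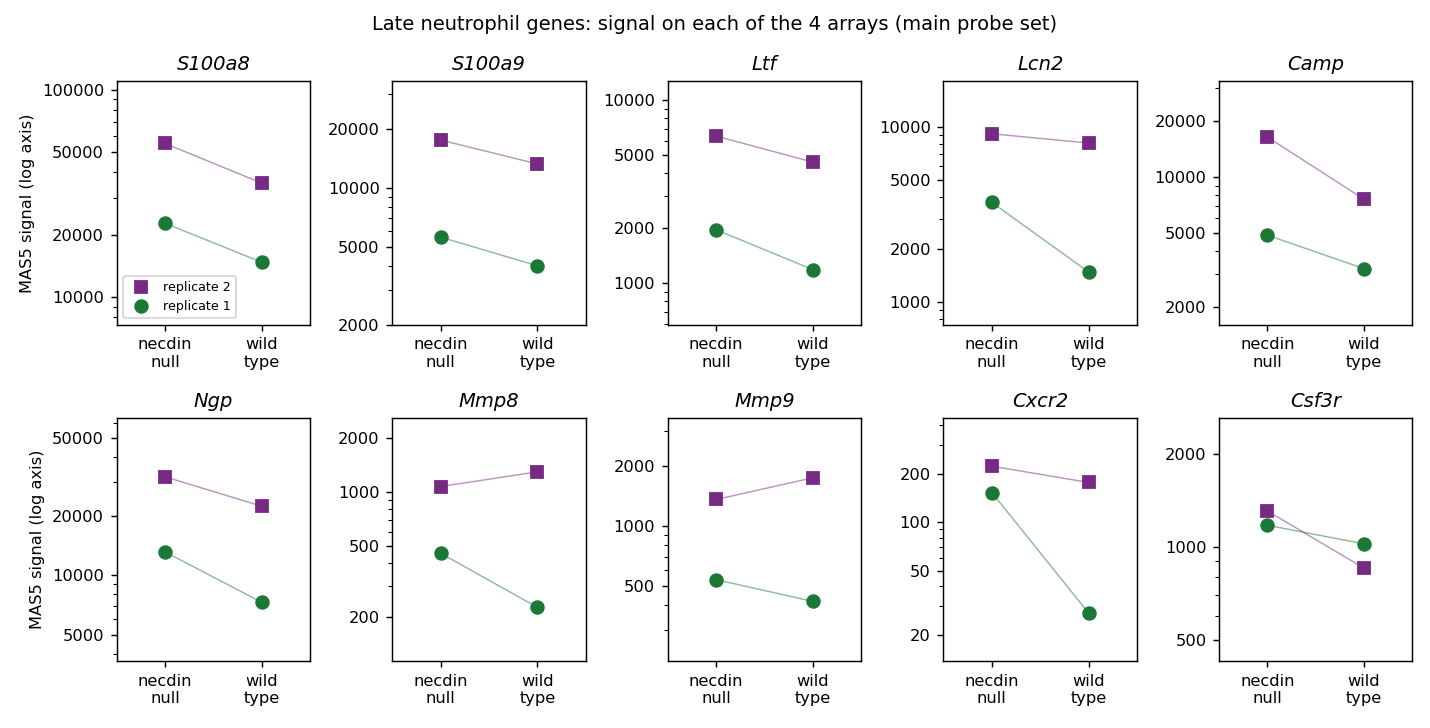
MAS5 signal of the main probe set of each gene on the 4 arrays (log axis, 1 panel a gene), with necdin null on the left and wild type on the right; squares are replicate 2 and circles replicate 1, and lines join arrays of 1 replicate number. In 9 panels both squares lie above both circles, and in the Csf3r panel both necdin null points lie above both wild type points.

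The promoters of the 10 genes were read for motifs of factors active in granulocytes. RefSeq's table for GRCm38.p6 held 9 of the 10 (all but Mmp9). The windows are the 250 bases before the start, 5′ to 3′ on the gene's strand. Those of Ngp, Ltf, S100a8 and Mmp8 show the motifs found, and that of Csf3r is shown because it was the gene that did not follow replicate number. Capitals mark a C/EBP motif (TTGCNNAA or its reverse complement TTNNGCAA), an ETS motif of the family of PU.1 (GGAAGT or ACTTCC) or a TATA box (TATAAA or TTTATA):
Ngp, chr9:110419558-110419807, + strand: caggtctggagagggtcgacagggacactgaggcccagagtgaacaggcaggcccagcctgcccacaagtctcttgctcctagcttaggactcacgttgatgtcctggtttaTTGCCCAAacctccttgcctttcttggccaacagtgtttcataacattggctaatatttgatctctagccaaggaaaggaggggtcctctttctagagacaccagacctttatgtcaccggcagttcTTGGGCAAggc
Ltf, chr9:111019042-111019291, + strand: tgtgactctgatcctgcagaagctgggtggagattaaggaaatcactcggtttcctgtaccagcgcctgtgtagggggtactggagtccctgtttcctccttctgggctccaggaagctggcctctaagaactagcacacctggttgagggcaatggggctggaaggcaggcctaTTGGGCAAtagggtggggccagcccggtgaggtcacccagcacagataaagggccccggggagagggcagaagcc
S100a8, chr3:90668821-90669070, + strand: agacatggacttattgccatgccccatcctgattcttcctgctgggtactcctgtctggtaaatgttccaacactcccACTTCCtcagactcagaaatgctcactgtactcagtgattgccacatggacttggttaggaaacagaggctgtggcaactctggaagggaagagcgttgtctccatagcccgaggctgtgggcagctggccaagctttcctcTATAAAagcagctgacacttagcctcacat
Mmp8, chr9:7558179-7558428, + strand: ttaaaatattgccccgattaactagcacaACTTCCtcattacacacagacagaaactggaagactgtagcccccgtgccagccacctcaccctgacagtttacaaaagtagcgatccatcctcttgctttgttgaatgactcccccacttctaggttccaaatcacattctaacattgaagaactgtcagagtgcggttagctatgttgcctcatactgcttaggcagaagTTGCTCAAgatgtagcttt
Csf3r, chr4:126024409-126024658, + strand: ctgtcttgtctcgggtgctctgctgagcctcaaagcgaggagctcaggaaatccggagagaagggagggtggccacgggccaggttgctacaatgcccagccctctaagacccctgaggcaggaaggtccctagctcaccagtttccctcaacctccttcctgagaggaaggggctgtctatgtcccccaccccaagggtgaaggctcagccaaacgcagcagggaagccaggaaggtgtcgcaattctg

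The C/EBP motif was found in 5 of 9 windows (S100a9, Ltf, Lcn2, Ngp and Mmp8), against 9.56% of 32851 windows of this length in the table. Ngp held 2, which begin 138 and 11 bases before the start, and those of Ltf and Mmp8 begin 75 and 19 bases before it. The ETS motif was found in 4 of 9 (S100a8, S100a9, Mmp8 and Cxcr2), against 19.7% of all windows. The TATA box was found in S100a8 alone, 30 bases before the start, against 12.4% of all windows. No motif of the 3 overlapped another in these windows, and the windows of Camp and Csf3r held none of these letters. A match describes the sequence only.

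S100a8 and S100a9 form calprotectin, a calcium- and zinc-binding complex that fills the neutrophil cytosol; no protein-coding gene lies between them on mouse chromosome 3 in the RefSeq annotation. S100a8 had 22732 and 55148 in the necdin null group, against 14736 and 35494 in the wild type group, and S100a9 had 5584 and 17497 against 3990.1 and 13206. In both genes the replicate 2 arrays were high and the replicate 1 arrays low in both genotypes, so the genotypes overlapped. At the deposited scaling the replicate difference of S100a8 was close in both genotypes, at 1.28 (necdin null) and 1.27 (wild type). Its genotype difference was then 0.64 within replicate 2 and 0.63 within replicate 1. S100a9 had the genotype differences 0.41 within replicate 2 and 0.48 within replicate 1. Over all arrays its replicate difference was 1.69 with a standard error of 0.22 (limma adjusted p = 0.098). The genotype differences depended on the scaling. With quantile normalization they were 0.025 within replicate 2 and 0.69 within replicate 1 for S100a8, and 0.11 and 0.51 for S100a9.

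Among the secondary granule genes, Ltf encodes lactoferrin, an iron-binding protein. It had 1959 and 6374 in the necdin null group, against 1186 and 4591 in the wild type group, with a replicate difference of 1.82 (standard error 0.26, limma adjusted p = 0.12) and a genotype difference of 0.60 (standard error 0.64). Lcn2 encodes lipocalin 2, which binds bacterial siderophores. Its signals were 3712 and 9149 in the necdin null group, against 1486 and 8099.9 in the wild type group, so the genotypes lay far apart on the replicate 1 arrays (log2 difference 1.32) and close on the replicate 2 arrays (0.18).

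Camp encodes the mouse cathelicidin, the precursor of an antimicrobial peptide, and Ngp a related granule protein. Both lie on chromosome 9, with 8 protein-coding genes between them, and Ltf follows Ngp after another 20. Camp had 4872 and 16395.5 in the necdin null group, against 3220.0 and 7595 in the wild type group. Here the genotype difference was wider on the replicate 2 arrays (1.11) than on the replicate 1 arrays (0.60), the opposite of Lcn2. Ngp had 13186 and 31838 in the necdin null group, against 7295 and 22531.5 in the wild type group, with 0.50 within replicate 2 and 0.85 within replicate 1. Over all arrays the genotype difference was 0.85 with a standard error of 0.54 for Camp and 0.68 with a standard error of 0.53 for Ngp, and the genotypes overlapped for both.

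The matrix metalloproteinase genes departed from the other granule genes in the sign of the genotype difference within replicate 2. Mmp8, the neutrophil collagenase of secondary granules, had 454 and 1069 in the necdin null group, against 227 and 1290.4 in the wild type group. Mmp9, the gelatinase of tertiary granules, had 538 and 1359 in the necdin null group, against 419 and 1746 in the wild type group on its main probe set, and the other probe set gave 447 and 1309 against 298 and 1488. On the replicate 1 arrays both genes were higher in necdin null cells, by 0.99 and 0.36 on the log2 scale, and on the replicate 2 arrays both were lower, at -0.27 and -0.36. The 2 signs cancelled for Mmp9, whose overall genotype difference was -0.0013 with a standard error of 0.62; it turned to 0.032 with quantile normalization and 0.098 with the mean of both probe sets. Its replicate difference was 1.69 with a standard error of 0.23 (limma adjusted p = 0.098), that of Mmp8 1.86 with a standard error of 0.33 (adjusted p = 0.23). The genotype difference of Mmp8 over all arrays was 0.36 with a standard error of 0.70.

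The receptors behaved unlike each other. Cxcr2, the receptor for neutrophil-attracting CXC chemokines, had 153 and 222 in the necdin null group, against 27.3 and 176 in the wild type group. Its wild type replicate 1 signal stood apart from the other 3, and the genotype difference was 2.33 within replicate 1 and 0.33 within replicate 2. As that array lay below the filter, the size of the replicate 1 difference depends on the pseudocount, and it was 2.44 with a pseudocount of 1 and 1.64 with one of 32. The overall difference of 1.33 had a standard error of 0.76, and without wild type replicate 1 it was 0.063. Csf3r, the G-CSF receptor gene, had 1176 and 1308 in the necdin null group, against 1024 and 854 in the wild type group, or 1242 ± 93.7 against 939 ± 120 (mean ± SD, n = 2 each). The genotype difference was 0.41 with a standard error of 0.22 (limma adjusted p = 1.00), 0.61 within replicate 2 and 0.20 within replicate 1, and the replicate difference was -0.053 with a standard error of 0.24.

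Within the replicate numbers, necdin null cells had the higher signal for 10 of 10 genes on the replicate 1 arrays, where 47.9% of all genes did, and for 8 of 10 on the replicate 2 arrays, where 45.1% did. The same 8 genes, all but Mmp8 and Mmp9, were higher within both numbers, where 21.9% of all genes were. Of these, 7 also had both replicate 2 arrays above both replicate 1 arrays (S100a8, S100a9, Ltf, Lcn2, Camp, Ngp and Cxcr2), where 5.33% of all genes met both conditions. Each such difference sets 1 array against 1 and has no test. The median was 0.67 within replicate 1 and 0.44 within replicate 2. The replicate 2 median depended on the scaling: with quantile normalization it was 0.093, with S100a8 at 0.025, Lcn2 at 0.011, Ngp at 0.078, S100a9 at 0.11 and Camp at 0.84, and still 8 of 10 above 0. Necdin null replicate 2 held 37.4% of its summed signal in its brightest 1% of probe sets, while necdin null replicate 1 held 28.9% and the wild type arrays held 29.4% and 30.6%; the part of this in the result was not tested.

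**Figure D2:**
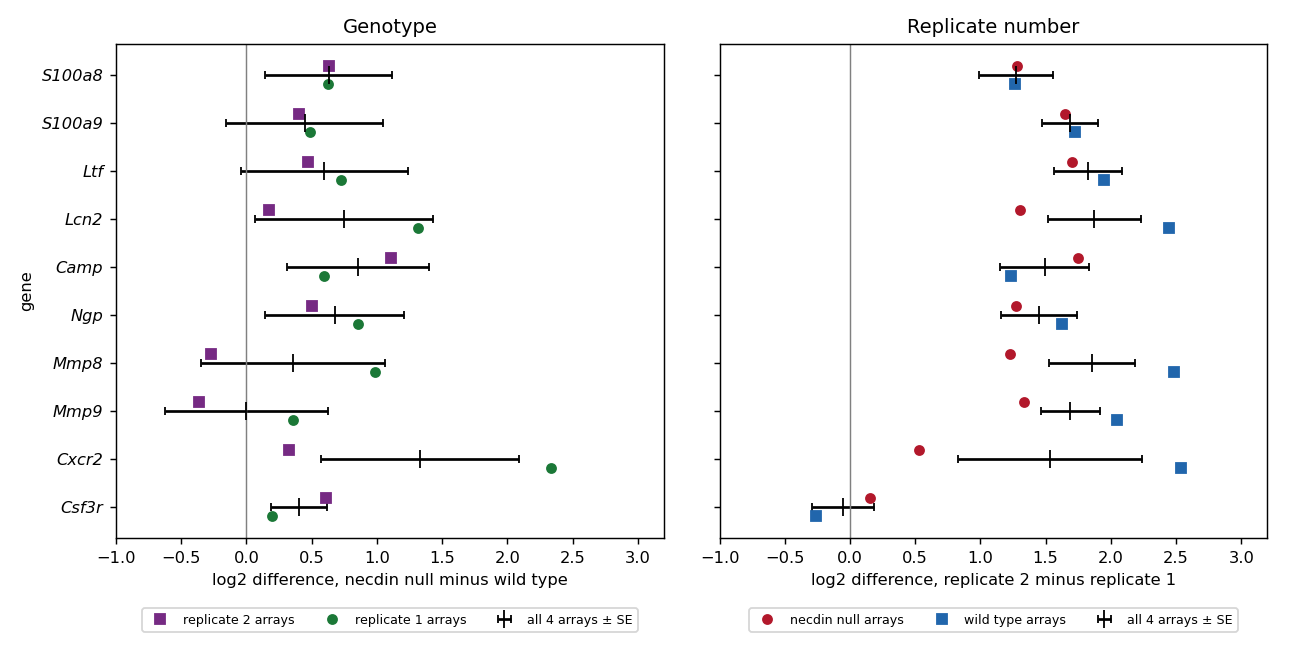
Log2 differences of each gene, necdin null minus wild type (left) and replicate 2 minus replicate 1 (right). Bars give the limma estimate over all 4 arrays ± its standard error; on the left squares give the difference within replicate 2 and circles within replicate 1, and on the right circles give it within necdin null and squares within wild type. On the left Mmp8 and Mmp9 have their replicate 2 squares below 0; on the right every gene but Csf3r lies above 0 in both genotypes.

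The replicate difference was at least 2-fold in both genotypes for 8 of 10 genes, where 1.2% of all genes were that far above in both. The others were Cxcr2, with 0.53 in the necdin null group and 2.53 in the wild type group, and Csf3r. The replicate difference lay between 0.15 and 1.75 in necdin null cells and between -0.26 and 2.53 in the wild type group. The count of 8 is for the deposited scaling and was not redone under others. With quantile normalization the replicate difference of S100a8 over all 4 arrays was 0.93 on the log2 scale, which is under 2-fold. Of the squared deviations of a gene's 4 log2 values from their mean, replicate number took a median of 80.7% over the 10 genes, against 32.7% over all genes tested. The share was 95.7% for Mmp9, 93.4% for S100a9, 89.9% for Ltf and 1.36% for Csf3r. Genotype took 78.2% for Csf3r, 34.5% for Cxcr2, 24.1% for Camp and a median of 15.2% over the 10 genes, against 23.4% over all genes.

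The summed signal of the 10 genes was 54367 and 140361 in the necdin null group and 33612 and 95584 in the wild type group. It was thus higher in necdin null cells within each replicate number, and higher on each replicate 2 array than on either replicate 1 array. The brightest genes weigh most in this sum: S100a8 alone had 55148 (necdin null) and 35494 (wild type) on the replicate 2 arrays. Mmp8 and Mmp9 were lower in necdin null cells within replicate 2. The genotype difference of the list rested on which arrays were kept: the median was 1.29 when necdin null replicate 1 was dropped and 1.48 when wild type replicate 2 was, but -0.015 when necdin null replicate 2 was dropped and -0.26 when wild type replicate 1 was. Each of these sets arrays of uneven replicate number against each other. The replicate difference stayed between 1.20, with wild type replicate 1 dropped, and 1.90, with necdin null replicate 1 dropped.

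**Figure D3:**
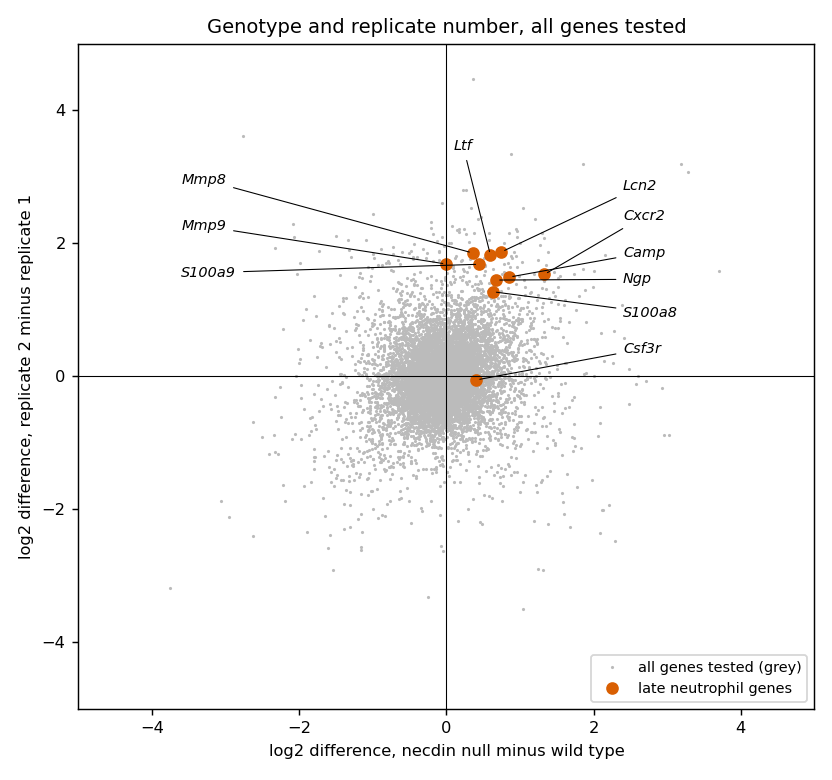
Each of 12680 genes by its log2 difference between genotypes (x axis, necdin null minus wild type) and between replicate numbers (y axis, replicate 2 minus replicate 1), both on log2(signal + 3.80). The 9 late neutrophil genes other than Csf3r lie in a group between 1.27 and 1.87 on the y axis, and Csf3r lies at -0.053; both axes are made from the same 4 arrays.

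Other genes of late neutrophils also lay higher on the replicate 2 arrays. Of 34 listed, 28 were on the array and 27 passed the filter. Of these, 21 had both replicate 2 arrays above both replicate 1 arrays and 0 had the genotypes apart, where 19.5% of all genes were above by replicate number and, by genotype, 12.8% were apart as higher and 17.7% as lower, with median differences of 0.81 by replicate number and 0.11 by genotype. With limma no gene of the list passed in either comparison, and 17, in either direction, had an unadjusted p under 0.05 by replicate number and 0 by genotype, where by replicate number 3.7% of all genes were higher and 5.13% lower at that level. Fpr2, a formyl peptide receptor, had 594 and 2264 in the necdin null group, against 496 and 1786 in the wild type group (replicate difference 1.88, standard error 0.21, limma adjusted p = 0.080). Stfa2l1, of the stefin A cluster of cysteine protease inhibitors, had 25.2 and 228 against 49.98 and 164. Its necdin null replicate 1 signal lay below the filter signal of 30.3. Olfm4, a glycoprotein of a subset of neutrophils, had 139 and 183 against 53.7 and 430, and Ifitm6, of the interferon-induced transmembrane family, had 675 and 1507 against 305 and 1644. Padi4, which citrullinates histones, was the gene with both replicate 2 arrays below, at 961 and 625 against 874 and 647; it was named after its values were seen. Higher in necdin null cells within both numbers were 7 of 27 of these genes, a share near that of all genes.

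Primary granule genes had a smaller median replicate difference. Of 7 measured, 4 had the replicate 2 arrays above and 1 below, where 19.5% and 21.1% of all genes did, with a median replicate difference of 0.42 and a median genotype difference of 0.27. Both necdin null arrays lay above both wild type arrays for 2 of the 7, where 12.8% of all genes did, and neither passed with limma. These were the serine protease genes Elane, with 948 and 1127 in the necdin null group, against 773 and 937 in the wild type group, and Prtn3, with 11639 and 13630.5 against 10474 and 10280.0; they were named after their values were seen. Mpo, myeloperoxidase, had 25658 and 39377 in the necdin null group, against 24363 and 28356 in the wild type group, and Ctsg, cathepsin G, had 10365 and 17985 against 9722 and 13325. Plac8, a gene of early myeloid cells, had 27480.0 and 47313 against 27480.3 and 28987, and Cst7, the cysteine protease inhibitor cystatin F, had 970.5 and 1204 against 729.7 and 1412. The difference between the lists was not tested.

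Among the 8 measured transcription factors of the granulocyte lineage, 3 had the replicate 2 arrays above and 1 below, where 19.5% and 21.1% of all genes did. Irf8, which directs myeloid progenitors toward monocytes and away from neutrophils, had 3595 and 8505 in the necdin null group, against 2496 and 7209 in the wild type group (replicate difference 1.39, standard error 0.20, limma adjusted p = 0.13). Cebpd had 458 and 734 against 299 and 578, and Cebpb had 134 and 152 against 137 and 223. The gene with both replicate 2 arrays below was Gfi1, at 1427 and 893 against 1209 and 1156. Gfi1 was named after its values were seen. By genotype 0 of the 8 were apart as higher and 1 as lower in necdin null cells, where 12.8% and 17.7% of all genes were. The lower gene was Cebpa, needed for the first granulocyte progenitors, at 328 and 213 against 352.5 and 387. Cebpe was not analysed here.

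Of 17 genes for ligands, partners and inhibitors of these proteins, 12 passed the filter, and Csf3, which encodes the ligand of the G-CSF receptor, did not (19.9 and 10.3 in the necdin null group and 2.34 and 24.8 in the wild type group). By replicate number 3 had the replicate 2 arrays above and 3 below, where 19.5% and 21.1% of all genes did. By genotype 3 were apart, all higher in necdin null cells, where 12.8% of all genes were. Cxcl12, the chemokine that retains cells in the marrow, had 61.6 and 48.3 against 14.1 and 25.4, near or below the filter. Slc22a17, a receptor for lipocalin 2, had 164 and 136 against 56.6 and 124. The third was Socs3, the inhibitor of G-CSF receptor signalling, at 418 and 441 against 225 and 367, a gene outside the rule for named genes and named after its values were seen. Timp1, an inhibitor of MMP9, had 39.98 and 79.4 against 18.6 and 47.2, and Lrp1, an endocytic receptor for proteases, 25.9 and 56.1 against 43.5 and 85.2. The wild type replicate 1 signal of Timp1 and the necdin null replicate 1 signal of Lrp1 lay below the filter. No gene of the list had an unadjusted p under 0.05 in either comparison with limma.

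Markers of other cells were also compared between replicate numbers. Lists other than the 10 genes were not recomputed under other scalings. Of 7 monocyte markers tested 5, and of 7 B lineage markers 5, had both replicate 2 arrays above both replicate 1 arrays, where 19.5% of all genes did, with median differences of 1.01 and 1.15; none of these markers passed with limma. Of the B lineage markers, Vpreb1, a surrogate light chain gene, had both replicate 2 arrays below (227 and 158 in the necdin null group, against 242 and 226 in the wild type group), and Igll1, the other surrogate light chain gene, had a replicate difference of -1.29 with the arrays overlapping; both were named after their values were seen. The summed monocyte signal was 5561 and 8275 on the replicate 2 arrays (necdin null, wild type) against 4004 and 2598 on the replicate 1 arrays, and the B lineage sum was 1657 and 2662 against 1294 and 1257. Csf1r, the receptor that defines monocytes and macrophages, had 1272 and 2104 in the necdin null group, against 834 and 3497 in the wild type group, and Blnk, a B cell adaptor, 74.3 and 202 against 64.3 and 363. Cd79a, of the B cell receptor, and Cd14, of monocytes, lay below the filter. No marker was at a signal of 0.

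Stem and progenitor markers ran the other way by replicate number: 7 of 10 had both replicate 2 arrays below both replicate 1 arrays, where 21.1% of all genes did, and 1, Flt3, had them above. Hlf, a factor of long-term stem cells, had 4997 and 2674 in the necdin null group, against 6110.1 and 2637 in the wild type group (replicate difference -1.06, standard error 0.16, limma adjusted p = 0.15). Slamf1, the stem cell marker CD150, had 338 and 233 against 397 and 74.4, and Mecom, a regulator of stem cell maintenance, had 1963 and 1444 against 2686 and 1527. The summed signal of the list was 45793 and 42463 on the replicate 2 arrays (necdin null, wild type), against 49408 and 55217 on the replicate 1 arrays. By genotype 0 of these 10 were apart, with a median difference of -0.051.

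The remaining lists were short, and over all genes 19.5% had the replicate 2 arrays above and 21.1% below. The replicate 2 arrays were above for 1 and below for 1 of 4 erythroid markers, above for 0 and below for 2 of 6 mast cell, basophil and eosinophil markers, and above for 1 and below for 2 of 5 megakaryocyte markers. Only Nkg7 of the T and NK markers passed the filter, and its arrays overlapped. The part of RNA quality and of these other cells in the replicate difference of the late neutrophil genes was not tested, and replicate number, 3' to 5' ratio and marker content cannot be told apart with 2 arrays a number.

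**Figure D4:**
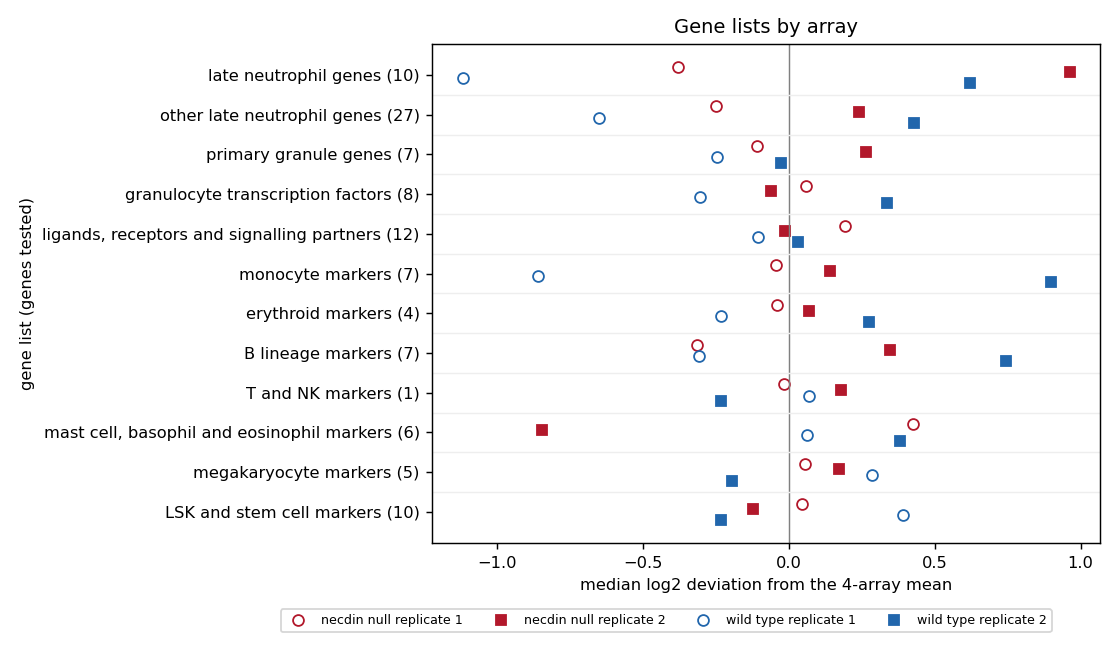
Median log2 deviation from the 4-array mean for each gene list (number of genes tested in brackets) on each array; red is necdin null, blue wild type, open circles replicate 1 and filled squares replicate 2. For the late neutrophil genes the values are -0.38 and 0.96 in the necdin null group and -1.12 and 0.62 in wild type, with the replicate 2 squares on the right; for the stem cell markers the squares lie on the left.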

How the data were processed

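LSK cells were profiled on Affymetrix 3' arrays of 45101 probe sets, 2 necdin null and 2 wild type. The deposited values are linear intensity, made with MAS5 per the submitters' processing notes (version: not given in the sources used here). On each array the mean after trimming 2% at each end is 500.004. The platform annotation named the probe sets (34958 with 1 symbol, 932 with several, 9211 with none), and only the first were named. Of those with 1 symbol, 34754 probe sets had a gene identifier found in RefSeq's GRCm38.p6 table. The files name no genome build, so coordinates are given for RefSeq's promoter windows alone.

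Values were analysed as log2(signal + 3.80), the pseudocount being the 10th percentile of all values, so differences of low genes are understated. Each gene took its probe set of highest mean, and genes below the 40th percentile (log2 5.09) were left out. Genotype and replicate number were each fitted with limma 3.58.1 in R 4.3.3 (eBayes with intensity trend, two-sided, Benjamini-Hochberg over 12680 genes, threshold 0.05). An exact permutation test of 2 against 2 cannot give p below 0.333. The code was tested on simulated data. The number of arrays limits precision. Genes of other lists were named by rule: up to 4 a list, those past the threshold or else those apart by genotype or number with the largest difference. Members and lists were chosen with earlier results of these data known. Alternatives changed pseudocount, filter, normalization, variance model, probe sets and replicate block, or left out 1 array.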

Additional observations from a re-analysis of the deposited data

Results flagged for a closer look

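Control transcripts take no part in the comparisons of genes and had more signal on the second necdin null array than on either wild type array. The hybridization controls gave 7197 there (geometric mean over bioB, bioC, bioD and cre) and 4276 on necdin null replicate 1, against 4717 and 6328 on wild type replicates 1 and 2. The polyadenylated controls (dap, lys, phe and thr) had 8869 there and 4179 on necdin null replicate 1, against 4456 and 6841 on the wild type arrays. For both kinds of control the replicate 2 arrays lay above the replicate 1 arrays, as they did for 9 of the 10 late neutrophil genes; the part of this in those differences was not tested.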

How the results depend on the processing

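With 2 arrays a group, and none of the 10 genes called, these comparisons cannot separate a small genotype difference from none. No gene of the array was called by genotype with limma (383 at an unadjusted p under 0.05) and 1, Rsrp1, by replicate number (1119), a gene named after its values were seen. The count by genotype was 0 under each other pseudocount, filter, scaling, variance setting and probe set rule, and 0 to 4 when leaving out 1 array. The count by replicate number was 11 with the filter at the 60th percentile, 22 with median centring, 0 without the intensity trend, and 15 to 390.0 when leaving out 1 array. The replicate numbers were not taken as pairs: the correlation, across genes, of same-numbered arrays' deviations was 0.11, and there are 2 pairs only. The fit with the replicate block called 3 genes by genotype and 28 by number, of which 0 and 7 were among the 10. At an unadjusted p under 0.05 by genotype this limma fit gave 7 of the 10, where 232 of 12680 genes were higher and 443 lower.

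Leaving out 1 array moved the median genotype difference of the 10 genes between -0.26 and 1.48, and the other settings gave 0.48 to 0.61. Of the 10, 1 to 10 had the necdin null arrays above with 1 array left out, and 1 under the other settings. Of all 12680 genes, 3505 to 3818 had them above with 1 array left out, against 1617 with all 4. Without wild type replicate 1, 2 of the 10 had the necdin null arrays below. The count of the 10 with the replicate 2 arrays above was 9, or 7 of 8 without _s_at, _x_at and _a_at probe sets. It was 9 to 10 when leaving out 1 array, where 4046 to 4900 of all genes were above, against 2468 with all 4. The settings tried for both counts, by genotype and by number, were chosen after seeing the data. By genotype, 15 of 138 values of single genes under another setting changed sign. When leaving out 1 array S100a8 ranged from -0.0088 to 1.27, S100a9 from -0.42 to 1.31, Ltf from -0.38 to 1.57, Lcn2 from -0.47 to 1.97, Camp from -0.022 to 1.73, Ngp from -0.14 to 1.49, Mmp8 from -0.88 to 1.60 and Mmp9 from -1.03 to 1.02; Mmp9 was 0.032 with quantile normalization and 0.098 with the mean of all probe sets. By replicate number Csf3r ranged from -0.36 to 0.25, and 0 of the other genes changed sign. Leaving out 1 array leaves uneven replicate numbers in the groups. The quantile median within replicate 2 was 0.093, against 0.44.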
